A study of Mus musculus with 4 samples.

Results

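The mouse genes of a feedback loop between islet cell types were followed in sorted pancreatic β cells: the peptide hormone gene Ucn3, the genes Crhr1 and Crhr2 of the receptors for the corticotropin-releasing hormone family, and the somatostatin receptor genes Sstr1 to Sstr5. These 8 genes were chosen by symbol from the 51912 genes of the deposited table, and each matched 1 row. The libraries came from neonates at postnatal day 13, with 2 Robo mutant and 2 control libraries. The Robo mutant cells were Robo1delta/delta and Robo2flx/flx, so the Robo1 deletion is carried by every cell, whereas loss of Robo2 needs the Cre. The control cells were Robo1+/+ and Robo2+/+. Both genotypes carried a single Ucn3-Cre allele and a single copy of Rosa26-lsl-H2B-mCherry, a nuclear reporter that Cre switches on, and cells were sorted on mCherry. Ucn3, a gene of this loop, is therefore also the gene whose control elements defined the sorted cells in both genotypes. The sources used here do not say whether the Ucn3-Cre allele leaves Ucn3 intact, or whether each library came from a separate animal. The series title frames the question as the need for Roundabout receptors in β cells for islet architecture.

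In the mouse islet, urocortin 3 is a peptide of mature β cells that is released together with insulin. It binds the receptor encoded by Crhr2 on delta cells and promotes release of somatostatin, which in turn restrains secretion of insulin and glucagon through somatostatin receptors on β and alpha cells. Receptors of the corticotropin-releasing hormone family mainly couple to Gs proteins, which raise cyclic AMP, and somatostatin receptors to Gi/o proteins, which lower it and open inwardly rectifying potassium channels. Values are given as estimated counts, as CPM (counts per 1000000 of the library total after TMM scaling, a correction for differences in RNA composition), and, where different genes are compared, as CPM per kb of annotated exon.

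Total counts were 38886129 to 49593712 per library. Robo1 stood at 22.3 and 21.02 CPM in the Robo mutant libraries, against 48.5 and 104 CPM in the controls, and Robo2 at 32.7 and 25.6 CPM in the Robo mutant libraries, against 75.3 and 118 CPM in the controls. All 8 fixed β-cell markers were detected in every library, and Ins1 and Ins2 together took 12.8% to 20.0% of counts. Transcripts of other pancreatic cells were present as well: the summed level of 8 alpha-cell markers was 19343 and 24195 CPM in the Robo mutant libraries and 23838 and 11934 CPM in the controls, and that of 8 acinar markers 2292 and 32047 CPM in the Robo mutant libraries and 3110 and 591 CPM in the controls. Robo mutant 2 thus held the most acinar RNA. In edgeR's quasi-likelihood test 0 of 16517 genes (0%) passed an adjusted p of 0.05 (lowest value 0.680), and 1025 genes (6.21%) had an unadjusted p under 0.05. DESeq2 called 151 genes (0.914%). Robo1 and Robo2 themselves were not called by edgeR's quasi-likelihood test (unadjusted p = 0.00796 and 0.00244, adjusted p = 0.680 for each). DESeq2 called both (adjusted p = 0.00186 and 1.99e-05). With 2 libraries per genotype, the lack of an edgeR call therefore does not show that a gene was unchanged. In bulk RNA, fewer cells of a type and less RNA per cell cannot be told apart.

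By edgeR, 0 of the 8 genes passed an adjusted p of 0.05 between genotypes. At an unadjusted p under 0.05 there was 1 member of the 7 tested, Sstr5, against 6.21% of all tested genes. DESeq2 also called Sstr5 and no other member (1 of 7, against 0.914% of all tested genes). Of the 7 members that passed the filter of 10 counts in 2 libraries, both Robo mutant libraries lay above both controls for Sstr2 (1 of 7, against 16.1% of all tested genes). They lay below both controls for Crhr1, Sstr3 and Sstr5 (3 of 7, against 20.4%), and the genotypes overlapped for Ucn3, Crhr2 and Sstr1. Over all tested genes, 36.6% had genotypes that did not overlap. Sstr5 passed that filter through the controls alone, so this count does not support a direction. The eighth member, Sstr4, was under the filter.

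Per kb of exon, the members spanned several orders of abundance. Ucn3 stood highest, at a mean of 278 CPM per kb over the 4 libraries (222 to 321), which put it at the 99.4th percentile of tested genes. Sstr3 followed at 32.6 CPM per kb (26.4 to 41.0, the 92.4th percentile) and Sstr2 at 4.67 CPM per kb (1.67 to 7.45, the 58.5th percentile). The ranges of these 3 genes did not overlap. The remaining 5 genes were scarce: Crhr1 averaged 0.473, Sstr1 0.386, Sstr5 0.325, Crhr2 0.238 and Sstr4 0.0490 CPM per kb. Their ranges overlapped between neighbours in that order, so no order was set among them. The sorted cells were thus rich in the ligand Ucn3 and in 1 somatostatin receptor transcript, Sstr3, while the transcript of the urocortin 3 receptor, Crhr2, was scarce.

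**Figure D1:**
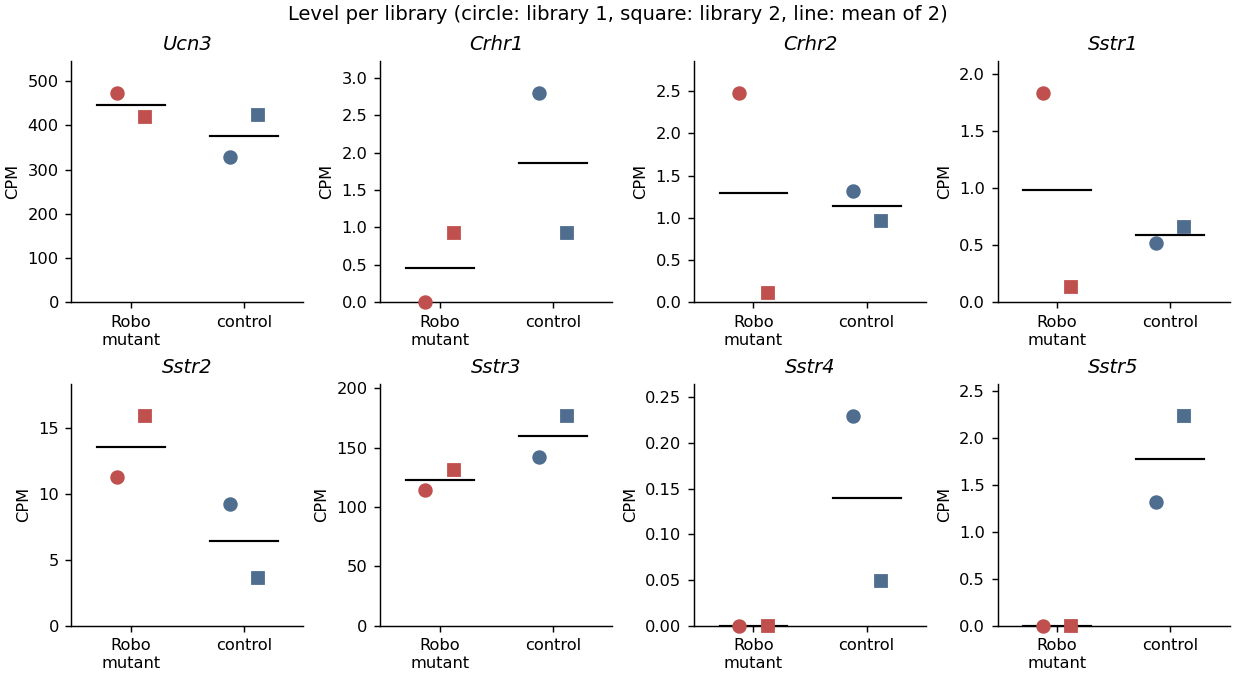
Level of each of the 8 genes in CPM (y axis, starting at 0, on a separate scale for each gene) in the Robo mutant and control libraries; circles are library 1, squares library 2 and lines the mean of 2 libraries. Ucn3 and Sstr3 are abundant with a narrow spread, Sstr2 is higher and Sstr5 at 0 in both Robo mutant libraries, and Crhr2 and Sstr1 are high in Robo mutant 1 and near 0 in Robo mutant 2.

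Ucn3 (ENSMUSG00000044988) lies on chromosome 13 from 3940688 to 3945349 on the minus strand (GRCm38). Its promoter is shown because control elements of this gene are those that the Cre in all 4 libraries is named for, and that of Sstr2 because it was the member that stood higher in both Robo mutant libraries. The 250 bases before each start come from RefSeq on GRCm38.p6, in which 6 of the 8 members had an entry. Capitals mark a match to 1 of 5 short motifs searched on both strands: the cyclic AMP response element TGACGTCA, the shorter TGACG (contained in it), a MAF site TGCTGAC, a homeodomain core TAATTA and a TATA box TATAAA. The first sequence is chr13:3945350-3945599 on the minus strand and the second chr11:113619077-113619326 on the plus strand.
Ucn3: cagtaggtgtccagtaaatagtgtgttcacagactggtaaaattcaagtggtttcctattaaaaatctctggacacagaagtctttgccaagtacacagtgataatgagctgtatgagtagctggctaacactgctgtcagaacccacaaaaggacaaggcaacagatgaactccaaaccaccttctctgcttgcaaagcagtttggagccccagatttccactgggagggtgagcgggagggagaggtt
Sstr2: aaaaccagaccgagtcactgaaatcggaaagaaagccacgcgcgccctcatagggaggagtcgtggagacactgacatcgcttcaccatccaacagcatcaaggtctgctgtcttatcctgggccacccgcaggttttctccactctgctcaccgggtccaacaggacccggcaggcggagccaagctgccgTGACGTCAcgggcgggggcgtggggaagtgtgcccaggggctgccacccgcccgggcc
None of the 5 motifs occurred in the Ucn3 window. The Sstr2 window held the full TGACGTCA from 58 to 51 bases before the start, an element found in 1.55% of 32851 promoter windows of this length. The window of the somatostatin gene Sst, which was searched in the same way, held the same 8 letters from 48 to 41 bases before its start. The Sstr3 window held the shorter TGACG from 9 to 5 bases before its start, a motif found in 17.8% of windows. The Crhr2 window held TATAAA from 39 to 34 bases before its start, a motif found in 12.4% of windows. The motifs were chosen with the sequences known, so these percentages do not measure how unusual a match is. A match is a description of letters and does not show that a factor binds there.

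Ucn3 was abundant in all 4 libraries. It stood at 474 and 418 CPM in Robo mutant 1 and 2, against 328 and 424 CPM in control 1 and 2 (23710 and 19023 counts, against 15715 and 17263 counts). Robo mutant 2 and control 2 lay next to each other, and the genotypes overlapped. The means were 446 ± 39.6 CPM in Robo mutant and 376 ± 67.4 CPM in control cells (SD, n = 2 each). The log2 change was 0.25 ± 0.19 (SE; edgeR's quasi-likelihood test, unadjusted p = 0.247, adjusted p = 0.972). Without control 1, the lowest library, it was 0.076, and without control 2 it was 0.44.

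Set against insulin transcripts of the same library, which removes library scaling, Ucn3 took 2.39 and 3.12 counts per 1000 counts of Ins1 plus Ins2 in Robo mutant 1 and 2, against 1.63 and 2.54 in control 1 and 2. The genotypes overlapped again (exact two-sided permutation test on the log2 ratio, p = 0.667, where 2 against 2 libraries allow no p below 0.333). The highest ratio was in Robo mutant 2, the library with the smallest insulin share and the most acinar RNA, and the part of either in the ratio was not tested. Among 12 other genes that rise late in β-cell maturation, 0 were called by edgeR in either direction, 11 had a negative and 1 a positive log2 change, and the median was -0.28, against -0.013 over all tested genes. The summed level of the 8 β-cell markers was lowest in Robo mutant 2, at 225828 and 158717 CPM in the Robo mutant libraries, against 229862 and 195729 CPM in the controls. Most of that sum was Ins2, at 149728 and 99747 CPM in the Robo mutant libraries, against 153155 and 125763 CPM in the controls. The sum therefore does not stand for all 8 markers. Mafa, G6pc2, Slc2a2 and Nkx6-1 are also in the late maturation list, and the part of this sum in the values of that list was not tested. The incretin receptor gene Glp1r, which had the smallest p of that list, stood at 337 and 371 CPM in the Robo mutant libraries, against 469 and 516 CPM in the controls (log2 change -0.48 ± 0.14 SE, edgeR's quasi-likelihood test, unadjusted p = 0.0246, adjusted p = 0.688). Glp1r was the only 1 of the 12 that DESeq2 called (adjusted p = 0.0339), where DESeq2 called 0.914% of all tested genes. The prohormone convertase gene Pcsk1 stood at 952 and 967 CPM in the Robo mutant libraries, against 1160 and 1447 CPM in the controls. The zinc transporter gene Slc30a8, the most abundant of the list per kb, was at 1223 and 1155 CPM in the Robo mutant libraries, against 1206 and 1495 CPM in the controls.

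The other ligands of the same receptors were almost absent. Crh and Ucn had 0 counts in all 4 libraries, where a count of 0 allows up to 3 counts per library. Ucn2 had 0 counts in both Robo mutant libraries, against 9 and 0 counts in control 1 and 2. Crhbp, the gene of a secreted protein that binds corticotropin-releasing hormone and urocortin, had 0 and 128 counts in Robo mutant 1 and 2 and 0 in both controls, so its transcript came from a single library, the one with the most acinar RNA, whose part in this was not tested. Of the ligands of this family, Ucn3 was thus the only 1 detected in every library.

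Both receptors of the family were scarce. Crhr1 (chromosome 11, 104132855 to 104175523, plus strand, GRCm38), the receptor for corticotropin-releasing hormone that mouse β cells are known to express, had 0 and 42 counts in Robo mutant 1 and 2, against 134 and 38 counts in control 1 and 2. In CPM these are 0 and 0.924 in the Robo mutant libraries, against 2.80 and 0.932 in the controls. Robo mutant 2 and control 2 were almost equal, and the difference between genotypes rested on the 0 in Robo mutant 1 and the high value in control 1. The log2 change was -2.01 ± 2.16 (SE; edgeR's quasi-likelihood test, unadjusted p = 0.399, adjusted p = 1.000). It was -1.01 without Robo mutant 1 and also -1.01 without control 1.

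Crhr2 (chromosome 6, 55090049 to 55133016, minus strand, GRCm38), the receptor of urocortin 3, had 124 and 5 counts in Robo mutant 1 and 2, against 63 and 39 counts in control 1 and 2. In CPM, Crhr2 was at 2.48 and 0.110 in the Robo mutant libraries, against 1.32 and 0.957 in the controls. Both controls lay between the Robo mutant libraries, which differed from each other 22.6-fold. Their exact Poisson 95% intervals, 103 to 148 and 1.62 to 11.7 counts, did not overlap, and these intervals cover counting error only. The log2 change of 0.19 ± 1.51 (SE; edgeR's quasi-likelihood test, adjusted p = 1.000) became 1.124 without Robo mutant 2 and -3.34 without Robo mutant 1. No direction could be set for Crhr2.

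Sstr1 (chromosome 12, 58211772 to 58214444, plus strand, GRCm38), a somatostatin receptor gene, followed the same order of libraries at the upper and lower end. It had 92 and 6 counts in Robo mutant 1 and 2, against 25 and 27 counts in control 1 and 2. In CPM, Sstr1 stood at 1.84 and 0.132 in the Robo mutant libraries, against 0.522 and 0.663 in the controls. The log2 change was 0.73 ± 1.45 (SE; edgeR's quasi-likelihood test, adjusted p = 1.000), and it was 1.63 without Robo mutant 2 and -2.14 without Robo mutant 1.

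Hhex and Ptprz1, 2 of the delta-cell markers, had the same highest and lowest libraries as these 2 receptors, and other markers did not. Sst, the gene of the somatostatin precursor, was at 2145 and 803 CPM in Robo mutant 1 and 2, against 793 and 712 CPM in control 1 and 2. Its log2 change of 0.97 ± 0.49 SE (edgeR's quasi-likelihood test, unadjusted p = 0.110, adjusted p = 0.904) therefore rested mostly on Robo mutant 1. Hhex, a transcription factor gene of delta cells, was at 30.2 and 8.88 CPM in the Robo mutant libraries, against 9.76 and 12.9 CPM in the controls. Ptprz1, a receptor phosphatase gene of delta cells, was at 13.5 and 2.82 CPM in the Robo mutant libraries, against 4.81 and 5.42 CPM in the controls. Hhex, Ptprz1, Crhr2 and Sstr1 were each highest in Robo mutant 1 and lowest in Robo mutant 2. The marker Spock3 was also highest in Robo mutant 1, whereas Rbp4 and the ghrelin receptor gene Ghsr were highest in Robo mutant 2 and Bche was highest in control 1. Sst was lowest in control 2. How many of all tested genes were highest in Robo mutant 1 and lowest in Robo mutant 2 was not counted. The match is therefore a description of these genes alone.

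The 8 delta-cell markers summed to 2525 and 1297 CPM in Robo mutant 1 and 2, against 1075 and 995 CPM in control 1 and 2. Without Sst they summed to 380 and 493 CPM in Robo mutant 1 and 2, against 283 CPM in each control, so that Robo mutant 2 was then the highest library. Most of that sum was Rbp4 alone, at 329 and 470 CPM in Robo mutant 1 and 2, against 258 and 254 CPM in control 1 and 2. The order of the libraries on this sum is therefore mainly that of Rbp4 and does not stand for the list. Of the 8, 6 were detected in every library, Lepr was at 0 in every library, and Bche was at 0 in Robo mutant 1. Per 10000 Sst counts, Crhr2 took 11.6 and 1.37 counts in Robo mutant 1 and 2, against 16.6 and 13.4 in control 1 and 2. Robo mutant 1 therefore lay close to the controls on this ratio, and Robo mutant 2 far below them (exact two-sided permutation test on the log2 ratio, p = 0.333, the smallest that 2 against 2 libraries allow). Sstr1 took 8.58 and 1.64 counts per 10000 Sst counts in the Robo mutant libraries, against 6.59 and 9.31 in the controls (exact permutation p = 0.667). The part of delta-cell RNA in the levels of Crhr2 and Sstr1 was not tested. The other ligand of somatostatin receptors, the cortistatin gene Cort, had 0 counts in both Robo mutant libraries, against 0 and 3 counts in the controls.

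**Figure D2:**
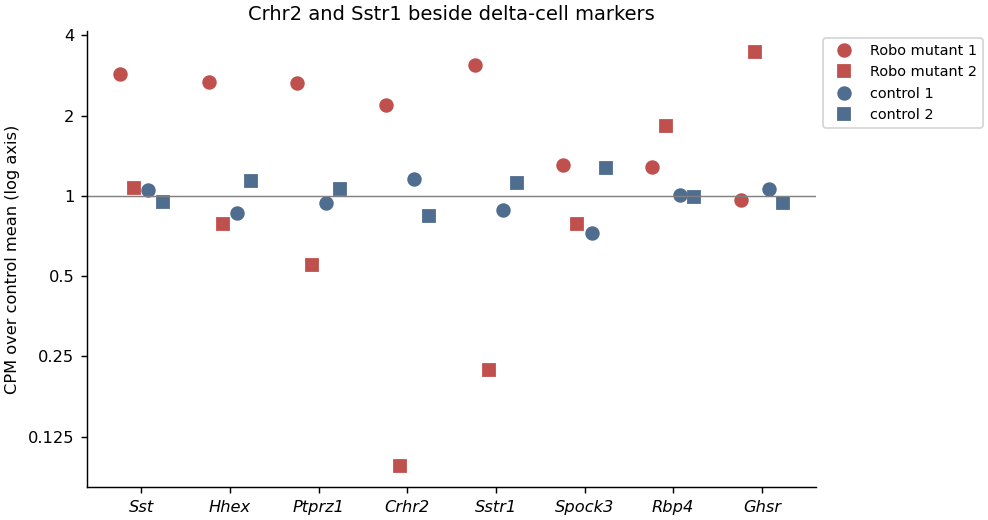
Level of Crhr2, Sstr1 and the 6 delta-cell markers detected in every library, as CPM divided by the control mean of each gene (y axis, log scale; the grey line at 1 is the control mean). Each point is 1 library, with Robo mutant left of control. Sst, Hhex, Ptprz1, Crhr2 and Sstr1 stand at 2.18 to 3.11 times the control mean in Robo mutant 1. In Robo mutant 2, Crhr2 and Sstr1 stand at 0.0967 and 0.223 of it, whereas Sst stands at 1.07. Rbp4 and Ghsr go the other way and are highest in Robo mutant 2, at 1.83 and 3.46 times the control mean, with Ghsr at 0.966 in Robo mutant 1. Spock3 is higher in Robo mutant 1 than in Robo mutant 2.

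Sstr3 was the main somatostatin receptor transcript of the sorted cells. Sstr3 (ENSMUSG00000044933, chromosome 15, 78537008 to 78544685, minus strand, GRCm38) encodes a receptor that is known to sit in primary cilia and that mouse β cells use to sense somatostatin. It stood at 114 and 131 CPM in Robo mutant 1 and 2, against 142 and 177 CPM in control 1 and 2 (5705 and 5946 counts, against 6809 and 7210 counts). Both Robo mutant libraries lay below both controls. The means were 122 ± 11.8 CPM in Robo mutant and 160 ± 24.5 CPM in control cells (SD, n = 2 each), a 1.303-fold lower mean in the mutant. The log2 change was -0.38 ± 0.17 (SE) and did not pass (edgeR's quasi-likelihood test, unadjusted p = 0.0782, adjusted p = 0.877; DESeq2 adjusted p = 0.691). Without each library in turn it ran from -0.53 without control 1 to -0.21 without control 2. With both Robo mutant libraries below both controls, leaving out 1 library could hardly turn the direction. That it stayed negative therefore adds no support.

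Sstr2 (ENSMUSG00000047904, chromosome 11, 113619342 to 113626028, plus strand, GRCm38) encodes the receptor through which somatostatin is known to restrain alpha cells in the mouse, and its promoter is printed above. It stood at 11.3 and 15.97 CPM in Robo mutant 1 and 2, against 9.23 and 3.58 CPM in control 1 and 2 (563 and 726 counts, against 442 and 146 counts). Both Robo mutant libraries lay above both controls, but control 1 was closer to Robo mutant 1 than to control 2. The means were 13.6 ± 3.33 CPM in Robo mutant and 6.41 ± 3.996 CPM in control cells (SD, n = 2 each). The log2 change was 1.09 ± 0.56 (SE; edgeR's quasi-likelihood test, unadjusted p = 0.117, adjusted p = 0.908). It was 0.56 without control 2, the lowest library, and 1.93 without control 1.

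The summed alpha-cell markers were likewise lowest in control 2, at 11934 CPM. Most of that sum was Gcg, the glucagon gene, at 11451 CPM there. The order of the libraries on this sum is therefore mainly that of Gcg and does not stand for the list. Gcg was at 18559 and 23497 CPM in the Robo mutant libraries and at 23056 CPM in control 1. Per 10000 Gcg counts, Sstr2 took 6.07 and 6.80 counts in Robo mutant 1 and 2, against 4.01 and 3.13 in control 1 and 2. On this ratio the spread within each genotype was smaller than the gap between them, and the test could not pass (exact two-sided permutation test, p = 0.333, the smallest that 2 against 2 libraries allow). Over the 4 ratios tested in this way, each adjusted p was 0.667. The ratio of Sstr2 to Gcg uses 1 alpha-cell transcript alone, and the part of alpha-cell RNA in the level of Sstr2 was not tested. Like Sstr2, the summed acinar markers (2292 and 32047 CPM in the Robo mutant libraries, against 3110 and 591 CPM in the controls) and the 4 summed immune markers (17.7 and 23.0 CPM in the Robo mutant libraries, against 14.5 and 2.28 CPM in the controls, with Cd68 not detected in every library) were highest in Robo mutant 2 and lowest in control 2, and their part was not tested. The pancreatic polypeptide gene Ppy, a marker of another endocrine cell type, stood at 2315 and 788 CPM in the Robo mutant libraries, against 2593 and 1394 CPM in the controls. The Sstr2 gene lies across from Slc39a11 on the opposite strand, with which it shares no annotated exon, and it was the only 1 of the 8 members that overlapped another annotated gene.

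Sstr5 (chromosome 17, 25489875 to 25497288, minus strand, GRCm38), a somatostatin receptor gene also known from β cells, had 0 counts in both Robo mutant libraries, against 63 and 91 counts in control 1 and 2. In CPM, Sstr5 stood at 0 in both Robo mutant libraries, against 1.32 and 2.23 in the controls. With a floor of 3 counts per library, it was at least 28.2-fold lower in Robo mutant than in control cells. edgeR's quasi-likelihood test did not call it (unadjusted p = 0.00617, adjusted p = 0.680), whereas DESeq2 called it (adjusted p = 0.0132), 1 of 100 genes that DESeq2 called lower (0.605% of those tested). This pattern was shared by 304 tested genes with 0 counts in both Robo mutant libraries, all of which had an unadjusted p under 0.05 in edgeR, and 57 of which DESeq2 called. A gene at 0 in both Robo mutant libraries passed the filter only where both controls had at least 10 counts. Sstr5 and these genes were thus tested because of their control values. Their p-values, the DESeq2 calls and the fold bound describe these libraries and give no support for a change. The opposite pattern, 0 counts in both controls, was found in 21 tested genes. Without either control, a single library had at least 10 counts of Sstr5, and it was not tested.

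Sstr4 (chromosome 2, 148395344 to 148396767, plus strand, GRCm38) had 0 counts in both Robo mutant libraries, against 11 and 2 counts in control 1 and 2. It was not tested in the main comparison. With all detected genes admitted, edgeR's quasi-likelihood test gave an unadjusted p of 0.119 and an adjusted p of 0.905.

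The balance among the 5 receptors was compared within each library, so that library scaling plays no part. Sstr3 made up 81.1% and 80.1% of their summed CPM per kb in Robo mutant 1 and 2, against 86.3% and 93.5% in control 1 and 2. Sstr2 made up 16.1% and 19.7% in Robo mutant 1 and 2, against 11.3% and 3.82% in control 1 and 2. Both Robo mutant libraries thus had a smaller share of Sstr3 and a larger share of Sstr2 than both controls. The mean difference was -9.32 percentage points for Sstr3 and 10.4 percentage points for Sstr2 (exact two-sided permutation test over libraries, p = 0.333 for each, the smallest possible, and 0.417 adjusted over the 5 receptors). Of the 5 shares that add up to 100%, these 2 move against each other by construction. Control 2, with the smallest Sstr2 share, was also the library with the least Gcg. Gcg stood at 11451 CPM there, against 23056 CPM in control 1 and 18559 and 23497 CPM in the Robo mutant libraries. The part of alpha-cell RNA in the shares was not tested.

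Counted without division by length, Sstr3 took 89.7% (Wilson 95% interval 88.9% to 90.4%) and 89.0% (88.3% to 89.8%) of the receptor counts in the Robo mutant libraries, against 92.6% (92.0% to 93.2%) and 96.4% (96.0% to 96.8%) in the controls. The intervals of the controls did not overlap each other, so the libraries of 1 genotype differed by more than counting error. Sstr1 made up 2.76% and 0.171% of the summed CPM per kb in the Robo mutant libraries, against 0.669% and 0.739% in the controls. Sstr5 made up 0% in both Robo mutant libraries, against 1.26% and 1.87% in the controls, and Sstr4 0% in both, against 0.423% and 0.0787%. A count of 0 allows a share of up to 0.0472% and 0.0449% of the receptor counts in Robo mutant 1 and 2. The 5 receptors together stood at 32.6 and 37.8 CPM per kb in the Robo mutant libraries, against 38.1 and 43.8 CPM per kb in the controls.

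**Figure D3:**
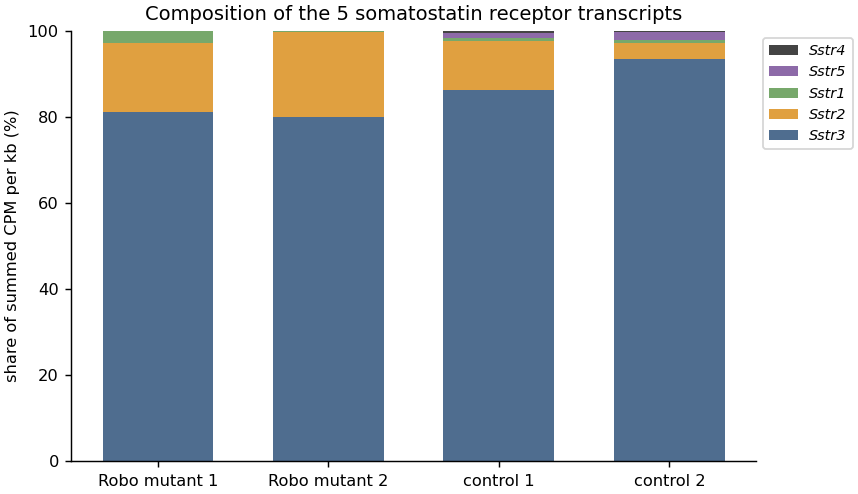
Share of each somatostatin receptor in the summed CPM per kb of the 5 (y axis, percent) in each library, Robo mutant left of control. Sstr3 makes up 81.1% and 80.1% in the Robo mutant libraries and 86.3% and 93.5% in the controls, and most of the rest is Sstr2.

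**Figure D4:**
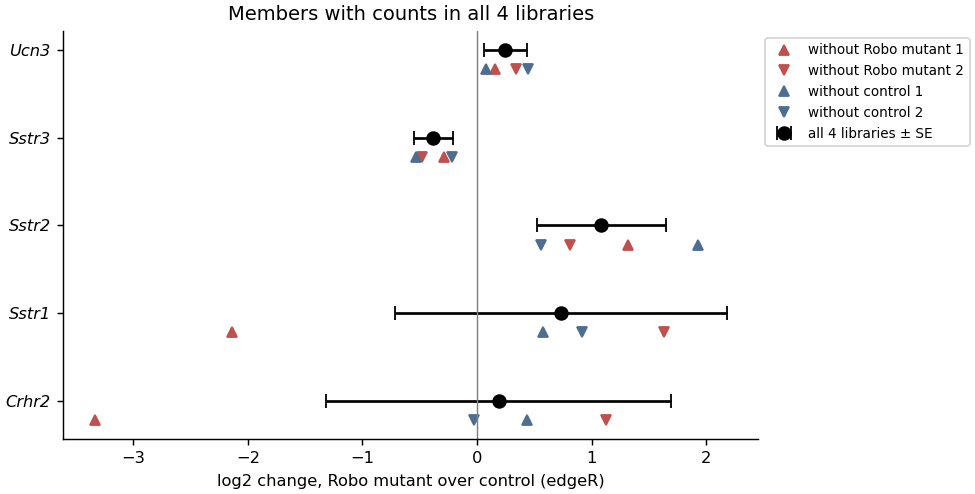
Log2 change of Robo mutant over control (x axis, edgeR) for the 5 members with counts in all 4 libraries; black points are the fit with all libraries with its standard error, and triangles the fits without 1 library. Sstr3 stays below 0 and Ucn3 and Sstr2 above 0 in each, while Sstr1 and Crhr2 fall to -2.14 and -3.34 without Robo mutant 1. For Sstr2 and Sstr3 the genotypes do not overlap, so leaving out 1 library could hardly turn the direction.

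For the 3 members with a mean of at least 10 CPM, the genes with the most similar pattern over the 4 libraries were looked up among 9018 other genes at that level. Likeness was the root mean square difference of log2(CPM + 1) values after each gene's mean was subtracted. For Ucn3 these were Dip2c, Elmo1 and Thnsl1 (differences of 0.0109, 0.0155 and 0.0187), and for Sstr3 Urgcp, Ncapd2 and Rpe (0.0134, 0.0147 and 0.0154). For Sstr2 they were the immediate early genes Junb (0.0640) and Egr1 (0.0708) and the neurotrophin-inducible secretory gene Vgf (0.0897). Egr1 was at 2598 and 3142 CPM in the Robo mutant libraries, against 2086 and 913 CPM in the controls, and Junb at 965 and 1201 CPM in the Robo mutant libraries, against 766 and 324 CPM in the controls. With 4 libraries and 9018 genes, a close match in pattern can arise without any relation between genes.

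The signalling genes around these receptors were examined as 6 lists, in which edgeR called 0 of 71 tested genes at an adjusted p under 0.05 (0% of all tested genes) and DESeq2 called 1, Rapgef4 (0.914% of all tested genes). Among the G protein alpha subunit genes, 7 of 9 had a positive log2 change, with a median of 0.13. Gnas, the gene of the stimulatory subunit used by Crhr1 and Crhr2, was at 2319 and 2157 CPM in the Robo mutant libraries, against 1897 and 1849 CPM in the controls (log2 change 0.26 ± 0.13 SE, edgeR's quasi-likelihood test, adjusted p = 0.912). Gnai2, an inhibitory subunit gene, was at 472 and 483 CPM in the Robo mutant libraries, against 381 and 440 CPM in the controls. Of 12 tested beta and gamma subunit genes, 6 had a positive and 6 a negative log2 change (median -0.10). Gng12 and Gng4, both gamma subunit genes, lay lower in both Robo mutant libraries, with log2 changes of -0.39 and -0.41.

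Adenylyl cyclases make and phosphodiesterases break down cyclic AMP, and 16 of 23 tested genes of these families had a negative log2 change (median -0.21). The soluble cyclase gene Adcy10, near the limit of detection, had 0 and 1 counts in the Robo mutant libraries, against 42 and 19 counts in the controls. It had the smallest p of the list (edgeR, unadjusted p = 0.0248). Like Sstr5, Adcy10 passed the filter through the controls alone, so this p gives no support for a change. Adcy6 stood at 20.6 and 19.9 CPM in the Robo mutant libraries, against 14.0 and 14.7 CPM in the controls, and Pde3b, a cyclic AMP phosphodiesterase gene and the most abundant of the list per kb, at 252 and 239 CPM in the Robo mutant libraries, against 297 and 270 CPM in the controls. Among 14 genes of cyclic AMP effectors, 7 had a positive and 7 a negative log2 change, and 1 higher and 3 lower genes had an unadjusted p under 0.05 in edgeR (6.21% of all tested genes in either direction). Creb1, the gene of the transcription factor that binds cyclic AMP response elements, stood at 26.0 and 23.8 CPM in the Robo mutant libraries, against 42.8 and 41.9 CPM in the controls (log2 change -0.77 ± 0.16 SE, edgeR, unadjusted p = 0.00657, adjusted p = 0.680; DESeq2 adjusted p = 0.0896). Rapgef4, the gene of the cyclic AMP sensor Epac2, stood at 110 and 112 CPM in the Robo mutant libraries, against 183 and 154 CPM in the controls (log2 change -0.60 ± 0.14 SE, edgeR, unadjusted p = 0.0100, adjusted p = 0.680), and DESeq2 called it (adjusted p = 0.0452). Crem, a gene of the same transcription factor family as Creb1 that was chosen after its values were seen, was the higher one, at 23.1 and 37.8 CPM in the Robo mutant libraries, against 16.003 and 18.1 CPM in the controls (log2 change 0.84 ± 0.31 SE, edgeR, unadjusted p = 0.0461, adjusted p = 0.795). Prkar1a, a regulatory subunit gene of protein kinase A, was at 922 and 897 CPM in the Robo mutant libraries, against 899 and 1020 CPM in the controls.

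Genes of the inwardly rectifying channels that Gi/o proteins open were low in all libraries. Kcnj6 had 133 and 185 counts in Robo mutant 1 and 2, against 39 and 41 counts in control 1 and 2 (log2 change 1.88 ± 0.71 SE, edgeR, unadjusted p = 0.0506, adjusted p = 0.809). Kcnj5 had 642 and 153 counts in the Robo mutant libraries, against 0 and 26 counts in the controls (edgeR, unadjusted p = 0.0715, adjusted p = 0.864). Both Robo mutant libraries therefore lay above both controls for 2 of the 4 channel genes, against 16.1% of all tested genes, and the genotypes overlapped for Kcnj3 and Kcnj9. Of 9 genes of receptor kinases, arrestins and phosphatases, 2 had a positive and 7 a negative log2 change (median -0.10). Grk5, a kinase gene that switches off activated receptors, was at 15.5 and 12.6 CPM in the Robo mutant libraries, against 21.5 and 23.9 CPM in the controls (unadjusted p = 0.0377, edgeR). Grk6, of the same family, was at 58.2 and 41.3 CPM in the Robo mutant libraries, against 34.0 and 32.0 CPM in the controls (unadjusted p = 0.0472, edgeR). Grk3, the most abundant of the list per kb, was at 129 and 211 CPM in the Robo mutant libraries, against 153 and 164 CPM in the controls.

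**Figure D5:**
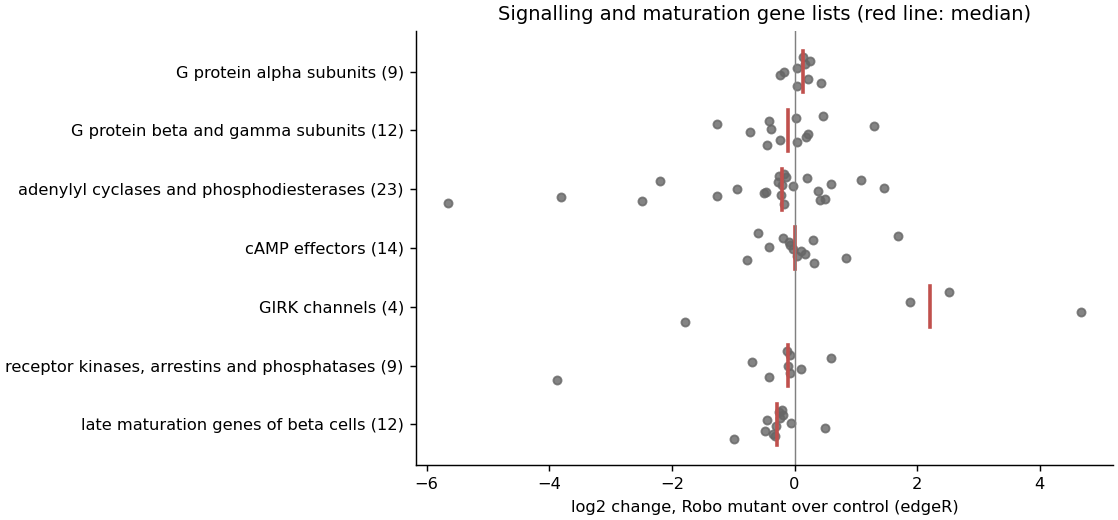
Log2 change of Robo mutant over control (x axis, edgeR) for each tested gene of the 6 signalling lists and the late maturation list (grey points; the number tested is in brackets) with the list's median (red line). The medians of the lists drawn lie between -0.28 (late maturation) and 0.13 apart from the 4 channel genes, at 2.201, and 0 of these genes passed an adjusted p under 0.05 in edgeR.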

How the data were processed

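RNA was measured in 2 Robo mutant and 2 control libraries of sorted β cells, prepared with SMART-Seq v4 and Nextera XT, which does not mark the strand, per the labels' protocols. The deposited values are RSEM estimated counts per gene in whole numbers; the submitters' processing notes name GRCm38, edgeR 3.16.5, RSEM 1.3.0, STAR 2.5.3a and bcl2fastq 2.20.0.422, with no roles. The deposited table calls them normalized, but totals differ 1.275-fold, so they were used as counts; a rescaling by the authors could not be seen.

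Genes with at least 10 counts in 2 libraries were tested two-sided with edgeR 4.0.16 (R 4.3.3; TMM, quasi-likelihood, Benjamini-Hochberg over 16517 genes, threshold 0.05); the script was tested on simulated data. DESeq2 1.42.0, limma 3.58.1 with voom, other scalings and filters, and leaving out each library were alternatives. P-values reflect the spread among these 4 libraries alone, and it may be technical. Exon lengths and positions came from GENCODE M21 (51719 of 51912 identifiers matched). Shares and ratios were tested with exact permutation over libraries. Intervals and floors (3 counts) cover counting error only.

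Members and lists were chosen with earlier results of these data known, and motifs with the sequences known. Named genes were the members, their ligands, Crhbp, Robo1, Robo2, Ins1, Ins2, Gcg, Ppy, from each list the 2 of smallest p and the most abundant per kb, and up to 3 genes most like each member above 10 CPM. Other markers were named beside Crhr2.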

Additional observations from a re-analysis of the deposited data

How the results depend on the processing

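DESeq2 called 151 genes where edgeR called 0, and its fitted log2 change of -8.83 for Sstr5 passed (adjusted p = 0.0132); that value depends on how 0 counts are treated and is no bound. edgeR called 0 to 1 genes without 1 library each, the call being Gm8797 without Robo mutant 2 (270 and 4690 counts in Robo mutant 1 and 2, against 4556 and 3783 in control 1 and 2), named after its values were seen. Each fit without 1 library leaves that genotype a single library, which is assumed to vary like the pair of the other genotype.

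The direction of Crhr2 turned under limma-voom (-0.96), and its log2 change ran from -3.34 to 1.124 over the fits without 1 library (-0.023 without control 2). That of Sstr1 turned under limma-voom (-0.12) and ran from -2.14 to 1.63. The Sstr1 share turned to -0.53 percentage points without Robo mutant 1 and was 2.06 without Robo mutant 2. The cause was not tested. In both genes Robo mutant 1 was the highest and Robo mutant 2 the lowest library. Ucn3, Crhr1, Sstr2 and Sstr3 kept their direction wherever they could be tested: Ucn3 from 0.076 to 0.44, Sstr2 from 0.56 to 1.93 and Sstr3 from -0.53 to -0.21. The genotypes did not overlap for Crhr1, Sstr2 and Sstr3, so leaving out 1 library could hardly turn these genes. Their kept direction adds no support. Crhr1 fell to -9.43 without Robo mutant 2, a fitted value and no bound, since Robo mutant 1 was at 0; the direction of Sstr5 is fixed by 0 counts in both Robo mutant libraries. The shares of Sstr2 and Sstr3 and Ucn3 per insulin count kept their direction under each alternative run, the share difference of Sstr2 ranging from 6.63 to 14.1 and that of Sstr3 from -12.9 to -5.74 percentage points without 1 library each (5.88 and -5.17 with counts not divided by length). The shares of Sstr2 and Sstr3 did not overlap between genotypes, so leaving out 1 library could not turn them. Crhr1 and Sstr1 did not pass a filter of 50 counts in 2 libraries, and Sstr5 was under the filter without either control. Crhr1, Crhr2, Sstr1 and Sstr5 rested on 5 to 134 counts where detected; for Crhr2 and Sstr1 the Robo mutant libraries differed by more than counting error. No paired analysis was possible because the labels give no replicate number that the genotypes share.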
